A study of Mus musculus with 42 samples.

Results

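The genes described here are 10 members of the circadian clock and its direct outputs, namely Arntl, Clock, Per1, Per2, Per3, Cry1, Nr1d1, Nr1d2, Bhlhe41 and Dbp. They were taken by symbol, 1 Ensembl gene each, from the 37907 genes of the table. Expression was measured by RNA-seq in 42 libraries from 4 hypothalamic nuclei of wild-type male mice labelled C57/BL6 (on a C57BL/6J background and 17 to 19 weeks old by the methods of the study) that were fed ad libitum or fasted for 24 hours before brain dissection. There were 5 fed and 5 fasted libraries of the arcuate nucleus (ARC), 6 and 6 of the ventromedial nucleus (VMH), 5 and 4 of the dorsomedial nucleus (DMH), and 6 and 5 of the paraventricular nucleus (PVN). Each nucleus was excised with a laser (laser-capture microdissection), so each library mixes the neurons, glia and vessels of its nucleus. The mice lived under a 12-hour light and 12-hour dark cycle, and the clock time at which brains were taken was not given in the sources used here.

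The molecular clock is a feedback loop of transcription. ARNTL (also called BMAL1) and CLOCK pair and switch on genes that carry an E-box, among them the Per and Cry genes, whose proteins then return to the nucleus and shut that pair down. A second loop runs through NR1D1 and NR1D2 (REV-ERBα and REV-ERBβ), which repress Arntl, while BHLHE41 and its relative BHLHE40 (DEC2 and DEC1) repress at E-boxes, and DBP carries the rhythm to output genes through D-boxes. In the hypothalamus the master clock lies in the suprachiasmatic nucleus, which was not among the nuclei dissected, and feeding time is known as a cue for clocks elsewhere.

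Levels are in RPKM, the reads of a gene per kilobase of its length and scaled to the depth of the library, so they can be compared between genes. Changes are fasted minus fed on the log2(RPKM + 1) scale, which understates the change of a gene with a low level. A gene was called where the adjusted p of limma, fitted over 33579 genes, was under 0.1. All 10 members passed the filter on low values. The estimated depth ranged from 1.33 to 13.2 M reads per library, and in the DMH it was 3.91 ± 0.863 M (SD, n = 5) in fed and 7.38 ± 4.0 M (n = 4) in fasted mice (two-sided exact permutation p = 0.0476). All 17 nucleus markers that had a value (4 of the ARC, 4 of the VMH, 4 of the DMH and 5 of the PVN) were highest in their own nucleus, in fed and in fasted mice. Those taken for the DMH were Ppp1r17, Hcrt, Npvf and Pmch. The order of levels does not show how much tissue from beside a nucleus was captured.

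The E-box and the D-box are the elements through which most of these genes are wired to each other, and they were searched in the 250 bases upstream of the RefSeq start sites (GRCm38.p6) of the 9 members that had such a window. The palindromic E-box CACGTG lay in 3 members, Bhlhe41, Per1 and Cry1, against 6.86% of all 27025 genes with a window. Per1 has 2 windows, and the one with the E-box lies inside the annotated gene, at a second start site. The RefSeq start sites of Bhlhe41 and Cry1 also lie inside the annotated gene, with the E-box outside it. Bhlhe41 and Per1 are also the members whose fed and fasted libraries did not overlap in 1 nucleus each (below), and Cry1 had no such nucleus. This was seen after the results were known, and a link between the E-box and fasting was not tested. The D-box TTANGTAA lay in 1 member, Per3, which held 2 copies of it, against 2.44% of all genes. Both strands were searched, and the motifs do not overlap each other. The capitals below mark these elements. The stretches were trimmed to lie outside the annotated exons of their own gene, and each is written 5′ to 3′ on the strand of its gene. Exons of other genes were not checked.
Bhlhe41 E-box, chr6:145865559-145865618, minus strand: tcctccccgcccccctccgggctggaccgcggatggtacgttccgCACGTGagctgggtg
Per1 E-box, chr11:69098738-69098833, plus strand: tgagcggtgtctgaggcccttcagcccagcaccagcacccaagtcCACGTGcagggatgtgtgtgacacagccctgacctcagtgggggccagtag
Cry1 E-box, chr10:85185065-85185159, minus strand: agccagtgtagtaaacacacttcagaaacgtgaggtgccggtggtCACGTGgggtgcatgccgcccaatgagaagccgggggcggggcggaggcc
Per3 D-boxes, chr4:151044796-151044890, minus strand: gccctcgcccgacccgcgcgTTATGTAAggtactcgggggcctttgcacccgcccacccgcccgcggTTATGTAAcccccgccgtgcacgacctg
The E-box ended 148 bases before the start site of Bhlhe41, 161 before that of Per1 and 55 before that of Cry1 (positions -148, -161 and -55). The core of the element bound by REV-ERB and ROR proteins, AGGTCA, lay before Clock, Per1 and Nr1d2, against 15.8% of all genes. A cAMP response element, TGACGTCA, lay before 0 of the 9 members, against 1.77% of all genes. A match of letters is a description of the window and not a measured binding site.

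The first question was whether a 24-hour fast altered the clock genes in any nucleus. In the ARC 1 of 10 members was called, Bhlhe41, against 0.0566% of all genes tested. In the VMH, DMH and PVN 0 of 10 were called by limma, where 0.131%, 0.0238% and 0.0715% of all genes were. At an unadjusted p under 0.05 the members numbered 2 (ARC), 2 (VMH), 1 (DMH) and 2 (PVN), against 7.5%, 7.31%, 6.48% and 5.53% of all genes. The median change of the 10 members was -0.28 (ARC), 0.01 (VMH), -0.21 (DMH) and -0.04 (PVN), against 0 for all genes tested in each nucleus. The other 9 members had no fasting difference that passed the threshold in any nucleus, and the plot of changes by nucleus shows the interval of each.

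**Figure D1:**
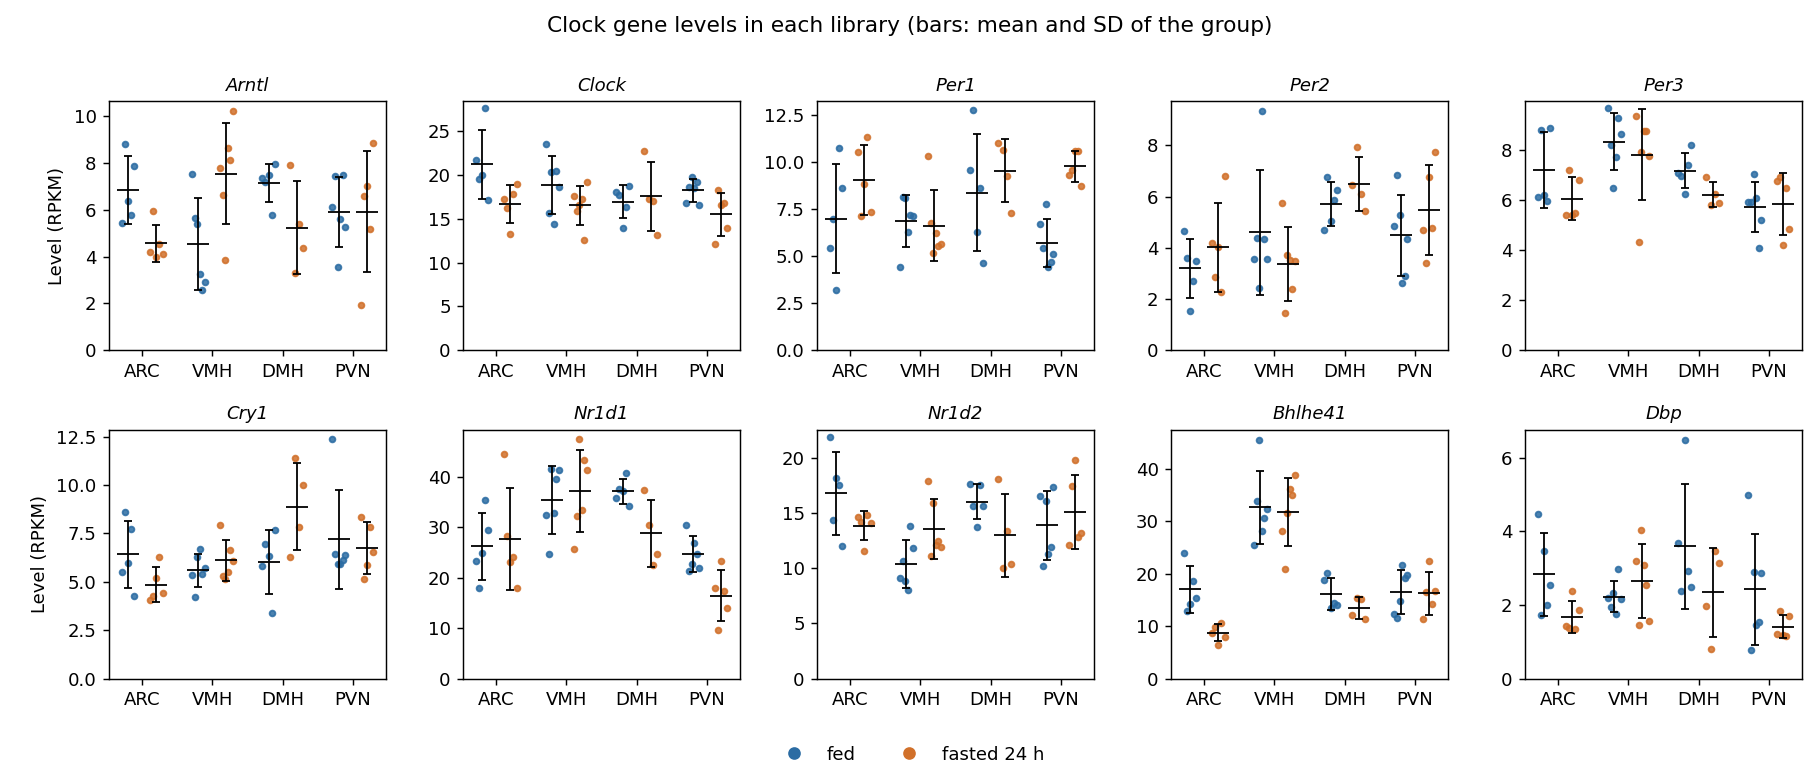
Level in RPKM (vertical axis, linear, from 0) of the 10 clock genes in each library, by nucleus, with fed mice in blue and fasted mice in orange; black bars are the mean and SD of a group. The fasted ARC libraries of Bhlhe41 (6.41 to 10.6 RPKM) lie below all fed ones, the fasted PVN libraries of Per1 (8.72 to 10.6 RPKM) lie above all fed ones, and the other panels overlap within each nucleus.

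Bhlhe41, the transcriptional repressor DEC2, fell in the fasted ARC. Its levels were 24.0, 12.9, 14.2, 18.6 and 15.3 RPKM in the 5 fed libraries and 8.69, 9.86, 6.41, 10.6 and 7.99 RPKM in the 5 fasted ones. Every fasted library lay below every fed one, with a gap between 10.6 and 12.9 RPKM. The mean was 16.998 ± 4.44 RPKM (SD, n = 5) in fed and 8.713 ± 1.64 RPKM (n = 5) in fasted mice, a fed mean 1.95-fold above the fasted one. The change was -0.87 (SE 0.188, 95% confidence interval -1.26 to -0.49, adjusted p = 0.0845), and the two-sided exact permutation p for this gene was 0.00794, the smallest p that 5 against 5 libraries allow. The call is close to the threshold. It was lost when any 1 of 7 of the 10 ARC libraries was left out, with the largest adjusted p, 0.243, without fed library 1, the highest of the fed ones, and it was lost when the ARC libraries were fitted alone (adjusted p = 0.595). The change itself remained between -0.96 and -0.75 whichever ARC library was left out.

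In the other nuclei Bhlhe41 had changes of -0.04 (VMH), -0.24 (DMH) and -0.02 (PVN), all with an adjusted p of 1. Its change over the mean of the 4 nuclei was -0.29 (adjusted p = 0.248). The limma test of whether its fasting change differed between nuclei gave an unadjusted p of 0.00766 and an adjusted p of 1, so a difference between nuclei was not shown. The annotated gene lies on chromosome 6, at 145858243 to 145865558 on the minus strand (GRCm38), and 19.05% of its exon bases overlap Gm43909 on the other strand. The reads carry no strand, so the share of that gene in these values cannot be told apart, and Gm43909 was not analysed here. In these bulk samples, fewer cells of a type and less RNA per cell cannot be told apart either. In the ARC the 6 neuron markers had a summed level of 577 to 644 RPKM in fed and 507 to 616 RPKM in fasted libraries, with 0 of 6 called and a median change of -0.19. Their part in the result was not tested.

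Per1, the member of the period family best known for a rapid response to stimuli, stood out in the PVN. Its levels were 6.68, 5.45, 7.75, 4.41, 4.70 and 5.09 RPKM in the 6 fed libraries, with a median of 5.27 RPKM, and 9.30, 9.55, 10.6, 10.6 and 8.72 RPKM in the 5 fasted ones. Every fasted library lay above every fed one. The mean was 5.679 ± 1.28 RPKM (SD, n = 6) in fed and 9.752 ± 0.827 RPKM (n = 5) in fasted mice, or 1.72-fold. The change was 0.70 (SE 0.208, 95% confidence interval 0.28 to 1.13). The limma p was 0.00175 and the adjusted p 0.416, so Per1 was not called, and the two-sided exact permutation p was 0.00433. With array weights, which give less weight to libraries that deviate across many genes, the change was 0.80 and the adjusted p 0.0486, so the call of Per1 depends on that choice.

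The means of Per1 in fed and fasted mice were 6.979 ± 2.89 and 9.034 ± 1.88 RPKM in the ARC (SD, n = 5 and 5), 6.87 ± 1.38 and 6.608 ± 1.89 RPKM in the VMH (n = 6 and 6), and 8.366 ± 3.11 and 9.538 ± 1.68 RPKM in the DMH (n = 5 and 4). These 3 pairs of groups overlapped, with changes of 0.40, -0.06 and 0.22. Over the mean of the nuclei the change was 0.32 (SE 0.107, adjusted p = 0.329). The difference in the change between nuclei had an unadjusted p of 0.0787 and an adjusted p of 1.

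Bhlhe41 in the ARC and Per1 in the PVN were the 2 of 40 pairs of a member and a nucleus whose fed and fasted libraries did not overlap. Among all genes tested, the libraries did not overlap for 0.742% (ARC), 0.277% (VMH), 1.15% (DMH) and 0.402% (PVN). Of the 40 exact permutation tests, which were not adjusted, 10 had a p under 0.05, of which 4 of 10 fell to the ARC, 2 to the VMH, 1 to the DMH and 3 to the PVN. Of all genes tested, 4.02% (ARC), 4.39% (VMH), 3.4% (DMH) and 3.85% (PVN) had an exact p under 0.05. The shares over all genes include 4748 genes with no reads in any library, while every member had reads in every library. Shares among genes of a similar level were not taken.

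**Figure D2:**
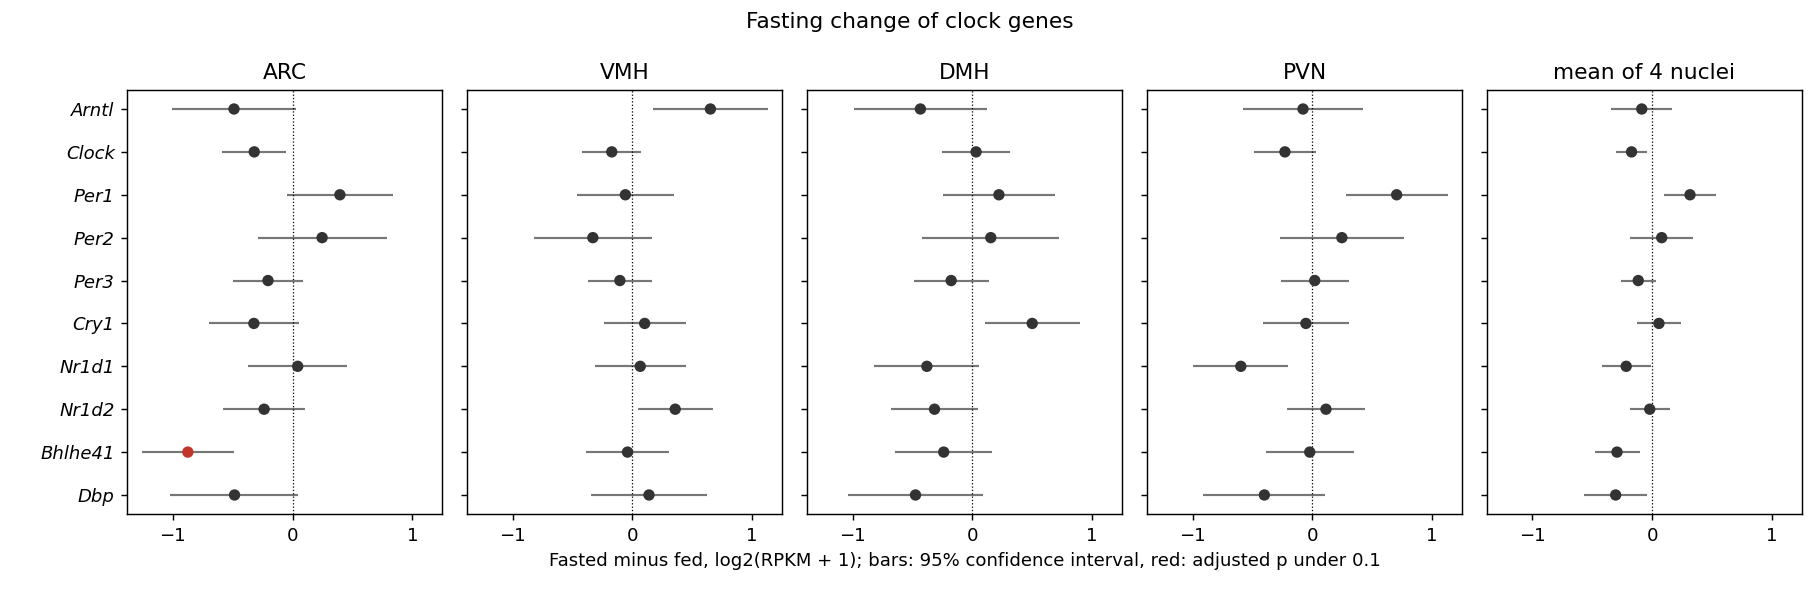
Change with fasting (horizontal axis, fasted minus fed, log2(RPKM + 1)) of the 10 clock genes in each nucleus and in the mean of the 4 nuclei; points are limma estimates, bars are 95% confidence intervals, and red marks an adjusted p under 0.1. Bhlhe41 in the ARC (-0.87) is the only red point, and Per1 in the PVN (0.70) and Arntl in the VMH (0.65) are the points farthest to the right.

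The positive arm, Arntl and Clock, had no called change. Arntl was at 7.53, 5.66, 5.40, 3.27, 2.55 and 2.90 RPKM in the fed VMH libraries and at 7.79, 6.64, 3.87, 8.66, 8.11 and 10.2 RPKM in the fasted ones. The groups overlapped, through 1 high fed and 1 low fasted library. The means were 4.553 ± 1.96 and 7.549 ± 2.15 RPKM (SD, n = 6 and 6), a change of 0.65 (SE 0.234, adjusted p = 0.43, exact permutation p = 0.0411). In the ARC the sign was the opposite, with means of 6.855 ± 1.45 RPKM in fed and 4.564 ± 0.807 RPKM in fasted mice (SD, n = 5 and 5) and a change of -0.49 (adjusted p = 0.708, exact permutation p = 0.0238). All 5 fasted ARC libraries were below the fed mean. The DMH and PVN had changes of -0.43 and -0.08. The limma test of a difference in this change between nuclei had an unadjusted p of 0.00795 and an adjusted p of 1.

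Clock, the partner of Arntl, was among the higher members, at 12.1 to 27.6 RPKM over the 42 libraries. Its changes were -0.32 in the ARC (adjusted p = 0.647, exact permutation p = 0.0397), -0.17 (VMH), 0.03 (DMH) and, in the PVN, -0.23 (exact permutation p = 0.026). All 5 fasted ARC libraries lay below the fed mean of 21.2 RPKM, and 4 of 5 fasted PVN libraries lay below the fed mean of 18.3 RPKM. Neither value passed the adjusted threshold.

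The other members of the negative arm, Per2, Per3 and Cry1, were low, with medians over all libraries of 4.37, 6.79 and 6.09 RPKM. Per2, the paralog of Per1, had changes of 0.25 (ARC), -0.33 (VMH), 0.15 (DMH) and 0.25 (PVN), with an exact permutation p of 0.27 or more in each. Per3 had changes between -0.21 and 0.02. Its 4 fasted DMH libraries lay below the fed mean of 7.19 RPKM (exact permutation p = 0.0476), while the adjusted p was 1. Cry1, a cryptochrome that represses the ARNTL and CLOCK pair, was at 5.80, 6.96, 6.35, 3.36 and 7.69 RPKM in the fed DMH and at 6.29, 11.4, 7.85 and 9.98 RPKM in the fasted DMH. The fasted libraries were all above the fed mean and overlapped the fed ones (change 0.50, SE 0.196, adjusted p = 0.634, exact permutation p = 0.0794). The deeper libraries of the fasted DMH belong to the same comparison, and the part of depth was not tested.

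The repressors of the second loop, Nr1d1 and Nr1d2, had no called change. Nr1d1 was at 30.6, 21.4, 22.8, 26.9, 24.7 and 21.9 RPKM in the fed PVN and at 18.0, 9.68, 23.3, 17.5 and 14.02 RPKM in the fasted PVN. All fasted libraries lay below the fed mean, and 1 of them lay within the fed range. The means were 24.7 ± 3.51 and 16.48 ± 5.04 RPKM (SD, n = 6 and 5), a change of -0.60 (SE 0.195, adjusted p = 0.559, exact permutation p = 0.0173). The changes of Nr1d1 were 0.04 (ARC), 0.06 (VMH) and -0.38 (DMH). Of its exon bases 8.547% overlap Thra on the other strand, and the change of Thra was 0.04 in the PVN. Nr1d2 had changes of -0.24 (ARC), -0.32 (DMH) and 0.11 (PVN), and of 0.36 in the VMH (adjusted p = 0.563, exact permutation p = 0.0411). All 6 fasted VMH libraries lay above the fed mean of 10.4 RPKM, and all 5 fasted ARC libraries lay below the fed mean of 16.8 RPKM. Over the mean of the nuclei its change was -0.02.

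Dbp, the output factor, was the lowest member, with a median of 2.18 RPKM over all libraries. Its fitted changes were -0.48 (ARC), -0.48 (DMH), -0.40 (PVN) and 0.14 (VMH), with adjusted p values of 0.727 or more and, in the ARC, an exact permutation p of 0.0476. All 5 fasted ARC, all 4 fasted DMH and all 5 fasted PVN libraries lay below the fed mean of their nucleus, and the groups overlapped in each. About 2 to 110 reads per library stood behind these values, with a median of 23. Dbp shares 18.01% of its exon bases with Sphk2 on the other strand, and the mean level of Sphk2 was above that of Dbp in every nucleus. In the ARC it was 11.8 RPKM in fed and 10.6 RPKM in fasted mice, against 2.837 and 1.679 RPKM for Dbp. The changes of Sphk2 were -0.14 (ARC), 0.02 (VMH), 0.19 (DMH) and 0.10 (PVN). The reads carry no strand, so the share of Sphk2 in the values of Dbp cannot be told apart and was not tested.

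Over the mean of the 4 nuclei 0 of 10 members were called by limma, against 0.5% of all genes, and 5 had an unadjusted p under 0.05 (Clock, Per1, Nr1d1, Dbp and Bhlhe41), against 7.14% of all genes. In the test of a difference in the fasting change between nuclei 0 of 10 were called by limma, against 0.00596% of all genes, and 4 had an unadjusted p under 0.05 (Arntl, Cry1, Nr1d2 and Bhlhe41), against 4.39%. The 4 nuclei came from the same brains, and the labels do not tie libraries to mice. The tests that combine or compare nuclei treat the libraries as independent. Where libraries of a brain deviate together, the p of the mean over nuclei is too small, while the p of a difference between nuclei can be too large, and this was not tested.

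The study prepared its libraries in 3 batches, and the batch of each library was inferred from recurring values in the table (10, 16 and 16 libraries). In the table the batch means of a gene were equal on the log2 scale, with a median over genes of 7.08e-08 for the larger difference of batches 2 and 3 from batch 1, which is read here as a subtraction of batch means that the methods do not describe. Batch 1 held uneven numbers of libraries of the nuclei and states, so such a subtraction can shift the levels of groups. The main fit and the exact tests did not allow for it, so their p-values can be too small or too large. Changes were also taken within each batch. For Bhlhe41 in the ARC the differences were -1.36, -0.69 and -0.81 in batches 1, 2 and 3. For Per1 in the PVN the values were 0.55, 0.68 and 0.85. For Nr1d1 in the PVN they were -0.49, -0.68 and -0.54. For Arntl in the VMH they were 0.12, 0.39 and 1.44, the highest in batch 3. Batch 1 held no fasted DMH library, and with 1 or 2 libraries per state in a batch no test was made within batches.

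**Figure D3:**
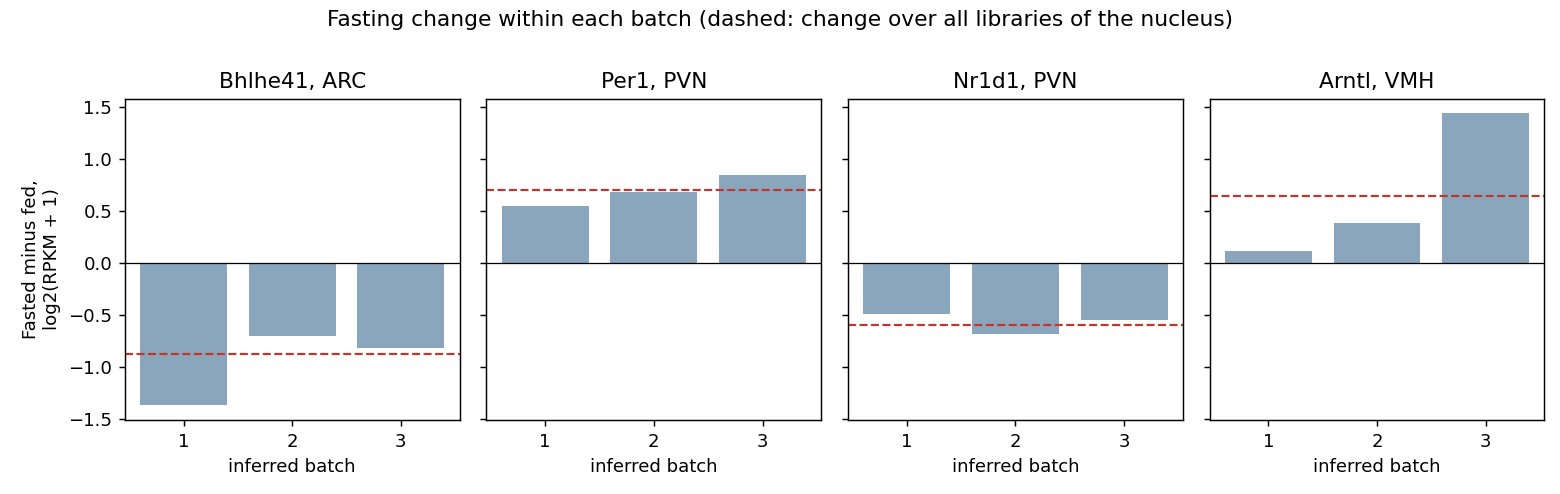
Fasting change (vertical axis, fasted minus fed, log2(RPKM + 1)) within each of the 3 inferred batches for the 4 largest member changes; bars are differences of means of 1 or 2 libraries per state, and the dashed red line is the change over all libraries of the nucleus. Each of the 4 has 1 sign in all batches, as had 22 of the 40 pairs of a member and a nucleus. The 4 were chosen for their change over these same libraries, so 1 sign was likely from the start. Of the 22 pairs 7 were in the DMH, where only batches 2 and 3 held both states. The share over all genes was not taken. The Arntl bars go from 0.12 to 1.44.

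The second question was how the levels of the clock genes differed between nuclei. In fed mice 4 of 10 members were called, against 12.4% of all genes, namely Bhlhe41 (adjusted p = 8.95e-05), Nr1d2 (0.0144), Nr1d1 (0.075) and Per3 (0.0838). With 1 of the 22 fed libraries left out, the call of Nr1d1 was lost in 14 of 22 fits (adjusted p up to 0.129, without PVN library 2) and that of Per3 in 10 of 22 (up to 0.253, without PVN library 5). In fasted mice 3 of 10 were called, against 11.9% of all genes, namely Bhlhe41 (adjusted p = 3.53e-08), Nr1d1 (0.000455) and Cry1 (0.0588). The call of Cry1 was lost in 5 of 20 fits with 1 fasted library left out (adjusted p up to 0.197, without DMH library 2). Of 60 exact permutation tests between nuclei that neighbour each other in the order of levels, 6 had an unadjusted p under 0.05, against 4.14% of such tests over all genes.

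Bhlhe41 was highest in the VMH. In the fed VMH its levels ran from 25.4 to 45.4 RPKM with a median of 31.4, and in the fasted VMH from 20.9 to 38.7 RPKM with a median of 33.3. The fed mean of 32.59 ± 6.95 RPKM (SD, n = 6) was 1.92 times that of the ARC, 1.97 times that of the PVN (16.52 ± 4.19, n = 6) and 2.02 times that of the DMH (16.16 ± 3.03, n = 5). The step from the VMH to the ARC had an exact permutation p of 0.00433, and the other 3 nuclei did not differ beyond their spread (p of 0.84 and 0.991 between neighbours). In fasted mice the order was VMH, PVN, DMH and ARC, at 31.72, 16.22, 13.48 and 8.713 RPKM, with p values of 0.00866, 0.238 and 0.0159 for the exact permutation tests between neighbours. The VMH mean was then 3.64 times the ARC mean.

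Nr1d1 had the highest levels of the 10 members over all libraries, with a median of 28.9 RPKM. In fed mice its mean was 37.15 RPKM (DMH), 35.42 (VMH), 26.21 (ARC) and 24.7 RPKM (PVN). No neighbours in that order differed beyond their spread (exact permutation p from 0.0649 to 0.732). In fasted mice the order was VMH, DMH, ARC and PVN, at 37.27, 28.79, 27.6 and 16.48 RPKM, and the step from the ARC to the PVN had an exact permutation p of 0.0317. Nr1d2 was lowest in the fed VMH (10.37 ± 2.18 RPKM, SD, n = 6), below the PVN (13.89 ± 3.11, n = 6) with an exact permutation p of 0.0476. In fasted mice Nr1d2 ranged between 12.97 and 15.08 RPKM across nuclei, and no neighbours differed beyond their spread. Per3 was lowest in the fed PVN (5.727 ± 0.992 RPKM, SD, n = 6), below the DMH (7.186 ± 0.711, n = 5; exact permutation p = 0.013).

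Cry1 was highest in the fasted DMH (8.887 RPKM) and lowest in the fasted ARC (4.848 RPKM), a ratio of 1.83. The exact permutation p was 0.0159 between these 2 nuclei, chosen as the extremes, and 0.0519 for the step from the VMH to the ARC. The remaining members had no called difference between nuclei. In fed mice the means ran from 4.553 (VMH) to 7.166 RPKM (DMH) for Arntl, from 16.96 (DMH) to 21.23 RPKM (ARC) for Clock, from 5.679 (PVN) to 8.366 RPKM (DMH) for Per1, from 3.192 (ARC) to 5.717 RPKM (DMH) for Per2, and from 2.228 (VMH) to 3.593 RPKM (DMH) for Dbp. The DMH held the highest fed mean of Arntl, Per1, Per2, Nr1d1 and Dbp, and no neighbour of the DMH in these 5 orders differed from it beyond the spread (exact permutation p from 0.221 to 0.603). Between the DMH and the lowest nucleus, a pair chosen as the extremes, the exact permutation p was 0.026 (Arntl), 0.0952 (Per1), 0.00794 (Per2), 0.00433 (Nr1d1) and 0.0303 (Dbp).

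A list of 20 further clock genes was tested in the same fit. In each single nucleus 0 of 20 were called by limma, against at most 0.131% of all genes. At an unadjusted p under 0.05 there were 3 (ARC), 3 (VMH), 0 (DMH) and 4 (PVN), against 7.5%, 7.31%, 6.48% and 5.53% of all genes. The list medians were 0.06, 0.02, 0.03 and -0.11. Over the mean of the nuclei 1 of 20 was called by limma, against 0.5% of all genes. It was Bhlhe40, the DEC1 repressor and closest relative of Bhlhe41, which fell by 0.56 on the log2 scale (SE 0.101, adjusted p = 0.00297). That fit treats libraries of the same brain as independent.

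Bhlhe40 had the lowest change of the 20 in every nucleus. In the ARC its level ranged from 25.6 to 42.5 RPKM in fed and from 10.9 to 25.1 RPKM in fasted libraries. The groups did not overlap, which held for 0.742% of all genes in the ARC. The means were 32.2 ± 6.57 and 17.38 ± 5.34 RPKM (SD, n = 5 and 5, change -0.88, adjusted p = 0.143, exact permutation p = 0.00794). In the VMH the means were 32.29 ± 5.68 and 21.44 ± 5.28 RPKM (n = 6 and 6, exact permutation p = 0.00649), in the DMH 26.5 ± 5.78 and 20.79 ± 5.49 RPKM (n = 5 and 4, exact permutation p = 0.19), and in the PVN 18.85 ± 4.91 and 13.58 ± 1.29 RPKM (n = 6 and 5, exact permutation p = 0.026). Its difference was negative in each batch of each nucleus that held both states, between -1.19 and -0.11. The call over the mean of the nuclei held when any 1 library was left out, with adjusted p values from 0.00106 to 0.00892. The nuclei came from the same brains, so a fit without 1 library can still hold other libraries of that brain. For the same reason the nuclei are not independent repeats. Where libraries of a brain deviate together, these p values are too small, which was not tested.

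At the other end of the list, the highest change was that of Arntl2 in the ARC (0.56), of Usp2 in the VMH (0.59) and DMH (0.51), and of Cry2 in the PVN (0.43), none of them called. Between nuclei 7 of the 20 were called in fed mice and 5 in fasted mice, against 12.4% and 11.9% of all genes. Rorb, a nuclear receptor that activates through the element NR1D1 represses, was at 29.41 ± 2.15 RPKM in the fed DMH (SD, n = 5) and at 10.6 to 12.25 RPKM in the other nuclei. Tef, of the same family as Dbp, was highest in the fed VMH (24.38 RPKM), and Hlf of that family was at 26.09 RPKM in the fed ARC and 24.66 RPKM in the fed DMH against 12.92 in the VMH and 11.04 in the PVN. The other called genes were Fbxl21, Rora, Bhlhe40 and Timeless in fed mice, and Fbxl21 and Rora in fasted mice.

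**Figure D4:**
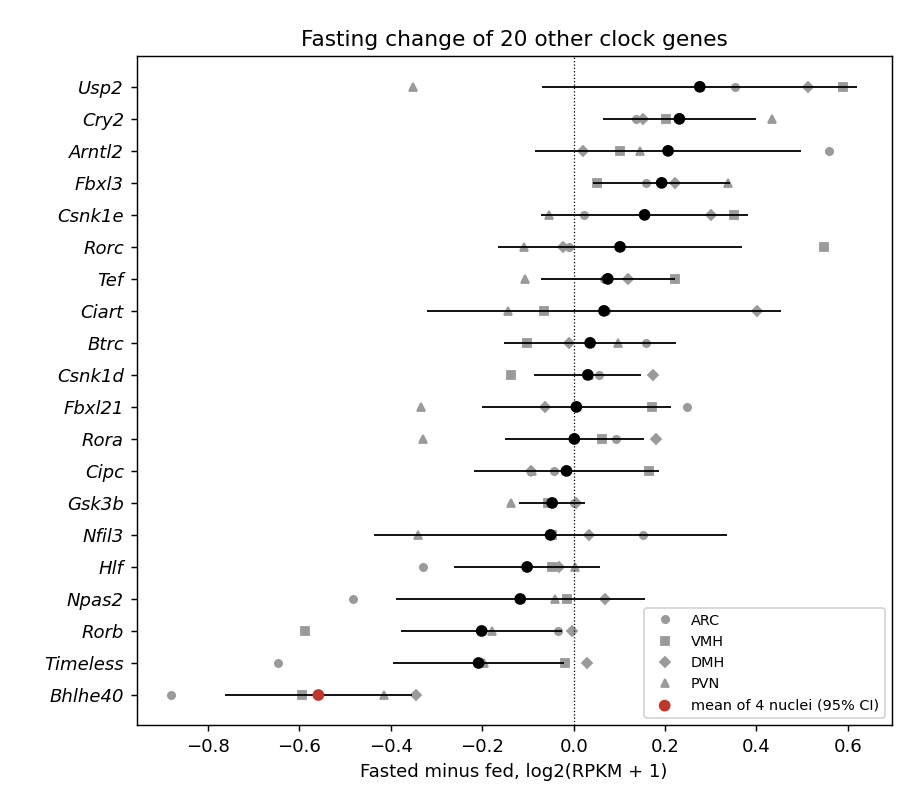
Fasting change (horizontal axis, fasted minus fed, log2(RPKM + 1)) of the 20 further clock genes, ordered by the mean of the 4 nuclei; grey symbols are the single nuclei, black and red points are the mean with its 95% confidence interval, and red marks an adjusted p under 0.1. Bhlhe40 at -0.56 is the only red point, and its 4 nuclei all lie to the left of 0.

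Other groups of genes moved in the same comparisons. Of 16 genes known to be induced by glucocorticoids (adrenal steroid hormones) 4 were called as higher with fasting in each nucleus and 10 in the mean of the nuclei, where at most 0.131% of all genes were called in a nucleus and 0.5% in the mean. They included Fam107a in the ARC, DMH and PVN (changes of 0.86, 0.80 and 0.81), and Cdkn1a in the ARC, VMH and PVN (1.92, 1.59 and 1.81). The list medians were 0.61 (ARC), 0.46 (VMH), 0.76 (DMH) and 0.69 (PVN). This list was chosen with earlier results of these data known, so its counts and medians are a description. In the PVN, where Per1 stood apart, the summed level of the list was 408 to 568 RPKM in fed and 691 to 828 RPKM in fasted libraries. In the VMH, where the change of Per1 was -0.06, it was 646 to 804 RPKM in fed and 925 to 1116 RPKM in fasted libraries. The part of these genes in the result for Per1 was not tested. Of 13 immediate early genes, which mark recent cell activity, 0 were called by limma in any nucleus or in the mean, with 4 at an unadjusted p under 0.05 in the PVN and a median change of -0.16 there.

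Markers of the suprachiasmatic nucleus were read in the same libraries. Of 10 such markers, the defining peptides Vip and Nms were at the level read as zero reads in 32 of the 42 libraries each. Prok2 was at that level in 11 libraries, Grp in 9, and Six6 and Lhx1 in 3 each. Six3, Rgs16, Syt10 and Vipr2 were at that level in 0 libraries. With fasting 0 of the 9 markers that could be tested were called by limma in any nucleus. In the DMH 2 had an unadjusted limma p under 0.05, and in the VMH 1. The summed level of the 10 markers was 39.0 to 53.7 RPKM in fed and 35.0 to 56.6 RPKM in fasted ARC libraries, and 48.1 to 72.3 and 51.6 to 60.2 RPKM in the DMH, where it was highest. It was 20.8 to 42.2 and 19.8 to 28.8 RPKM in the VMH, and 18.8 to 40.9 and 21.3 to 30.1 RPKM in the PVN. Of the markers of neurons, oligodendrocytes, microglia, endothelial cells, tanycytes and ependyma, and blood, 0 were called with fasting by limma in any nucleus. Between 0 and 2 genes of each of these lists had an unadjusted p under 0.05. Of 6 astrocyte markers only Aqp4 was called by limma. It fell in the VMH (-0.94, adjusted p = 0.0477) and in the mean of the nuclei (-0.59, adjusted p = 0.00131). In the VMH 1 of the 6 had a positive change, Aldh1l1, at 2.708 ± 0.734 RPKM in fed and 3.939 ± 1.46 RPKM in fasted mice (SD, n = 6 and 6). In the mean of the nuclei 2 of the 6 had a positive change. The part of Aqp4-bearing cells in the values of the clock genes was not tested.

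From library to library the members were weakly correlated. After subtraction of the group means, the 45 pairs of members had Pearson correlations between -0.199 (Clock and Dbp) and 0.443 (Nr1d2 and Dbp) over the 42 libraries, with a median of 0.02. Above 0.4 were 2 of the 45, Nr1d2 with Dbp and Clock with Nr1d2 (0.43). The genes most like 9 of the members by the same measure, among about 13750 genes, were Mrps30 for Arntl (0.618), Mog for Clock (0.607), Rab22a for Per1 (0.571), Scp2 for Per2 (0.656), Dscam for Per3 (0.699), Ubqln2 for Nr1d1 (0.649), Gm24923 for Nr1d2 (0.651), Itgb1bp1 for Dbp (0.636) and Kcna1 for Bhlhe41 (0.688). None of these 9 genes is a member or one of the 20 further clock genes. Each of the 9 correlations is the highest of about 13750, so it is high by choice. It cannot be set beside those of the 45 pairs of members. The libraries share batch, depth and mice, so all these correlations are a description.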

How the data were processed

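The authors amplified 2 ng of RNA per nucleus (NuGEN Ovation), sequenced unstranded single-end reads of 50 bases, and, per the submitters' processing notes and the methods of the study, used CASAVA 1.7, TopHat2 2.0.11 on GRCm38, Cufflinks 2.2.1, edgeR and limma, with outlier libraries removed on a multidimensional scaling plot. The counter and annotation were not given in the sources used here. The deposited values are RPKM, not counts. None is 0. The lowest values of a gene recur within 3 sets of libraries, taken as the 3 batches of the methods, and are read as zero reads plus an added count, which was 5 reads in the mean library and proportional to depth. Between 97.8% and 98.9% of low values lay a whole number of reads (within 0.05) above it. Depths and read numbers are estimates from this. Batch means appear to have been removed, as read from the values.

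Symbols came from GENCODE M21. Values were taken as log2(RPKM + 1) for 33579 genes with at least 1 RPKM in at least 4 libraries (4748 of these had no reads in any library), and fitted with limma 3.58.1 in R 4.3.3, with 8 group means, an intensity trend and Benjamini-Hochberg adjustment over all genes, called at 0.1. Single comparisons had two-sided exact permutation tests (scipy 1.17.1). The fit was tested on simulated data. No source ties libraries to mice, so p-values measure the spread between libraries. The deviations of same-numbered libraries had correlations from -0.138 to 0.0875 over 28 pairs of groups. The numbers rise with the inferred batch, and a subtraction of batch means lowers the correlation between libraries of a batch. The correlations therefore cannot tell whether same-numbered libraries share a brain. No pairing was used. The members and lists were chosen with earlier results of these data known. The genes named are all members, the gene most correlated with each (that of Cry1 is not reported here), and, of the other clock genes, those called and those with the largest and smallest change. Of the further lists, named genes were chosen after their values were seen.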

Additional observations from a re-analysis of the deposited data

Results flagged for a closer look

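In 6 of 80 groups of a member's libraries, 1 library stood apart from the rest of its group by Dixon's test, where chance gives about 1 in 20 groups, or 4 of 80. Cry1 was at 12.4 RPKM in fed PVN library 1, against 5.9 to 6.42 RPKM in the other fed PVN libraries. Per2 was at 9.321 RPKM in fed VMH library 4, against 2.42 to 4.38 RPKM. Per1 was at 10.3 RPKM in fasted VMH library 1, against 5.18 to 6.76 RPKM, and this library was the shallowest of the series, at 1.33 M reads. Per3 was at 4.339 RPKM in fasted VMH library 2, against 7.76 to 9.39 RPKM. Arntl was at 5.964 RPKM in fasted ARC library 2, against 4.0 to 4.53 RPKM. Nr1d2 was at 11.58 RPKM in fasted ARC library 3, against 14.1 to 14.8 RPKM. Neither of the 2 comparisons without overlap, Bhlhe41 in the ARC and Per1 in the PVN, held such a library.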

How the results depend on the processing

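Besides leaving out single libraries, 10 settings were tried, of which array weights, batch and block are alternative models. The number of members called in the ARC went from 1 to 0 with a pseudocount of 0.1 (adjusted p of Bhlhe41 0.108), with no pseudocount (0.114), with a replicate block (0.158) and with the ARC libraries alone (0.595), and under the other settings its adjusted p was 0.0633 to 0.0907. Array weights called 1 member in the PVN (Per1) and 6 between nuclei in fasted mice. With single libraries left out, the members called were 0 to 1 in the ARC, 2 to 4 between nuclei in fed mice and 2 to 4 in fasted mice. The lowest count in fed mice, 2, arose without PVN library 2, 5 or 6 or VMH library 5 or 6. The counts in the VMH, in the DMH, over the mean and for the interaction were 0 under all settings run.

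The replicate block, with the number in the titles as a factor, gave 0 calls in the ARC and turned the change of Bhlhe41 in the PVN to 0.0185. Whether the numbers mark shared mice could not be told.

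Changes near 0 turned sign. With array weights they were -0.0864 for Nr1d1 in the ARC, 0.0108 for Bhlhe41 in the VMH, 0.0087 for Arntl and 0.0385 for Cry1 in the PVN, and 5e-04 for Nr1d2 in the mean. With single libraries left out the ranges were -0.1402 to 0.1739 for Nr1d1 in the ARC, -0.1666 to 0.0334 for Per3, -0.0321 to 0.1631 for Nr1d1 and -0.1062 to 0.0696 for Bhlhe41 in the VMH, -0.0956 to 0.1525 for Clock in the DMH, -0.2324 to 0.2072 for Arntl, -0.0564 to 0.114 for Per3, -0.1253 to 0.0976 for Cry1 and -0.1402 to 0.09 for Bhlhe41 in the PVN, and -0.0613 to 0.0047 for Nr1d2 in the mean. None of these was called. The causes were not tested. The lowest median number of reads was that of Dbp, at 23.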
